A study of Mus musculus with 4 samples.

Results

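Slc17a6-positive neurons lacking Tcf7l2 were a small population of cells in coronal sections of neonatal mouse brain, 15848 of the 794833 cells kept. They were chosen by raw transcript counts: Slc17a6 of at least 3, Tcf7l2 of at most 1, Gad1 and Gad2 together of at most 2, Slc1a3 of at most 2, Cux2 below 4, Bcl11b below 5 and Rorb below 4, in cells with at least 20 gene counts. The levels of these 8 gating genes are given as values and are not tested, though they also define the classes of neighbouring cells. The members were set against 41580 neurons with Slc17a6 of at least 3 and Tcf7l2 of at least 8, called Tcf7l2-high neurons here. The members' positions, their neighbours and the 132 panel genes that the gate did not use are the results.

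Slc17a6 encodes VGLUT2, a transporter that loads glutamate into synaptic vesicles. In the mature forebrain it is typical of excitatory neurons below the cortex, above all of the thalamus, and in the young cortex it is also found in neurons that later rely on the related transporter Slc17a7. Tcf7l2 is a transcription factor of the TCF/LEF family, which act with beta-catenin at the end of the canonical Wnt pathway, and it marks postmitotic neurons of the thalamus. An Slc17a6-positive neuron without Tcf7l2 can therefore belong to any of several regions, and the positions of the cells were examined before their genes.

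Brains were taken at postnatal day 5, and all mice had lost the whiskers on the right snout to a lesion at day 4, 24 h before. A coverslip held a pair of 10 µm sections, 1 from a wild-type mouse and 1 from a Cx3cl1(-/-) mouse, and 4 coverslips were measured. Male mice gave coverslips 1 and 2, and female mice gave 3 and 4. Transcripts of 140 genes were counted in place by MERFISH, which reads barcoded RNA molecules over repeated rounds of imaging, with 40 blank barcodes that match no probe as the measure of false decoding. No column gives genotype, hemisphere or region, so none was assigned, and each coverslip sum pools both genotypes. The labels name the tissue as barrel cortex, but the sections are whole coronal slices, with a block of Tcf7l2-high neurons in each. The sections of a coverslip, a and b, were told apart by position alone.

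Between 172108 and 235618 cells were kept per coverslip, with a median of 161 to 273 gene counts per kept cell, and blanks made up 1.16% to 1.45% of their counts. Coverslip 4 was the deepest. The median member held 236, 246, 258 and 352 counts on coverslips 1 to 4, below the 377, 366, 404 and 545 of the median Tcf7l2-high neuron. Cell numbers recur between coverslips 1, 2 and 3, as each file counts its cells anew, but no count profile was found on 2 coverslips. Nothing states whether the sections come from different litters, so the p-values hold for these coverslips and sections only. With coverslip as a block, gene tests between populations or neighbourhoods rest on how far their differences vary from coverslip to coverslip. Tests between the sexes rest on the spread between coverslips.

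Members made up 2.26% of the kept cells on coverslip 1 (95% exact binomial interval 2.19% to 2.33%), 1.96% on coverslip 2 (1.90% to 2.02%), 2.07% on coverslip 3 (2.01% to 2.14%) and 1.76% on coverslip 4 (1.71% to 1.81%). The intervals cover counting error only. The mean was 2.01% ± 0.210 (SD, n = 4). The female coverslips averaged 1.92% and the male ones 2.11%, and the values of the sexes overlapped (exact permutation test, two-sided, p = 0.667, where 0.3333 is the smallest p that 2 against 2 allows). Per section the share ran from 1.37% in section 4b to 2.44% in section 1a, with a median of 2.13%. When every cell of at least 100 counts was thinned to 100 counts, the mean share was 1.65%, against 2.52% in the same cells unthinned.

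The Tcf7l2 distribution fell steeply up to the members' limit and had only a shallow dip, not a gap, before the limit of the compared neurons. Of the cells with Slc17a6 of at least 3 that met the other limits, 13634 had no Tcf7l2 count, 2214 had 1, 740 had 2 and 554 had 3, after which the number rose to 702 at 7 and 667 at 8. Between the limits, at 2 to 7 counts, lay 3866 such cells, which are in neither population. Cells without any Tcf7l2 count thus made up 86.0% of the members.

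**Figure D1:**
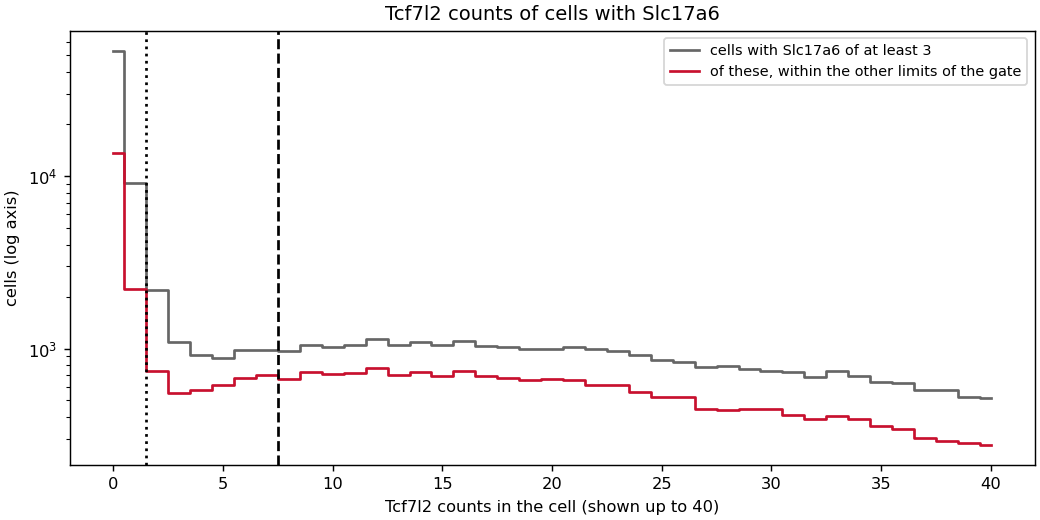
Number of cells (log axis) by Tcf7l2 count, for all cells with Slc17a6 of at least 3 (grey) and for those within the other limits of the gate (red). The dotted line marks the upper limit for members and the dashed line the lower limit for Tcf7l2-high neurons; both curves dip slightly between the lines, and members lie in the peak at the left.

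Members averaged 5.47 ± 0.380 Slc17a6 counts per cell and Tcf7l2-high neurons 9.52 ± 0.916 (SD, n = 4 coverslips), while Tcf7l2 averaged 0.139 ± 0.0299 and 33.2 ± 10.7. Members with Slc17a6 at the limit of 3 numbered 5295, and 10320 cells with 2 counts met every other limit. Levels were near each other across that limit: per 1000 non-gating counts, Sfrp1 was 11.3 inside and 9.27 just outside, Tcf4 3.83 and 3.99, and Wnt7b 6.90 and 7.28. The 1594 members with Slc17a6 of at least 10 held 3.90 Sfrp1 counts per 1000, against 10.6 in all members. The 2214 members with 1 Tcf7l2 count held 8.25 Sfrp1 and 2.44 Sox2 counts per 1000 non-gating counts, and the 740 cells just outside, with 2 Tcf7l2 counts, held 4.56 and 5.33. Sfrp1 is a secreted Wnt antagonist, and Sox2 is a transcription factor of neural progenitors that some neurons keep.

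The label of neuron was checked on Meg3, a noncoding RNA abundant in neurons, and on Nlgn2, an adhesion molecule of inhibitory synapses. Meg3 averaged 116 ± 22.6 counts per member and 172 ± 33.3 per Tcf7l2-high neuron, against 13.5 ± 4.14 in Slc1a3-positive cells. These had Slc1a3 of at least 5 and, in this check, Slc17a6 of at most 1. Nlgn2 averaged 10.5 ± 1.34 counts per member, against 4.02 ± 0.850 in Slc1a3-positive cells. In Tcf7l2-high neurons Nlgn2 averaged 11.1 ± 1.62, so both genes lay nearer to that population than to the Slc1a3-positive cells. Rbfox3, Snap25 and Syt1 are not on the panel, and neither is Slc17a7.

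The members formed dense patches. In every one of the 8 sections a paired band of members lined a cleft in the outline of the tissue, read by eye as the cleft between the hemispheres, ran down both of its banks and turned outward along the surface on each side. This band, called the cleft band here, held 5347 members. Other patches, mostly toward the opposite surface of the section, held 4878 members, and 5608 were scattered, many of them along the outer rim. The 15 remaining members lay outside both sections of their coverslip. Patches were found from the members' positions alone, as groups of at least 40 members with at least 12 members within 120 coordinate units, and those within 1000 units of the cleft were joined into the band.

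**Figure D2:**
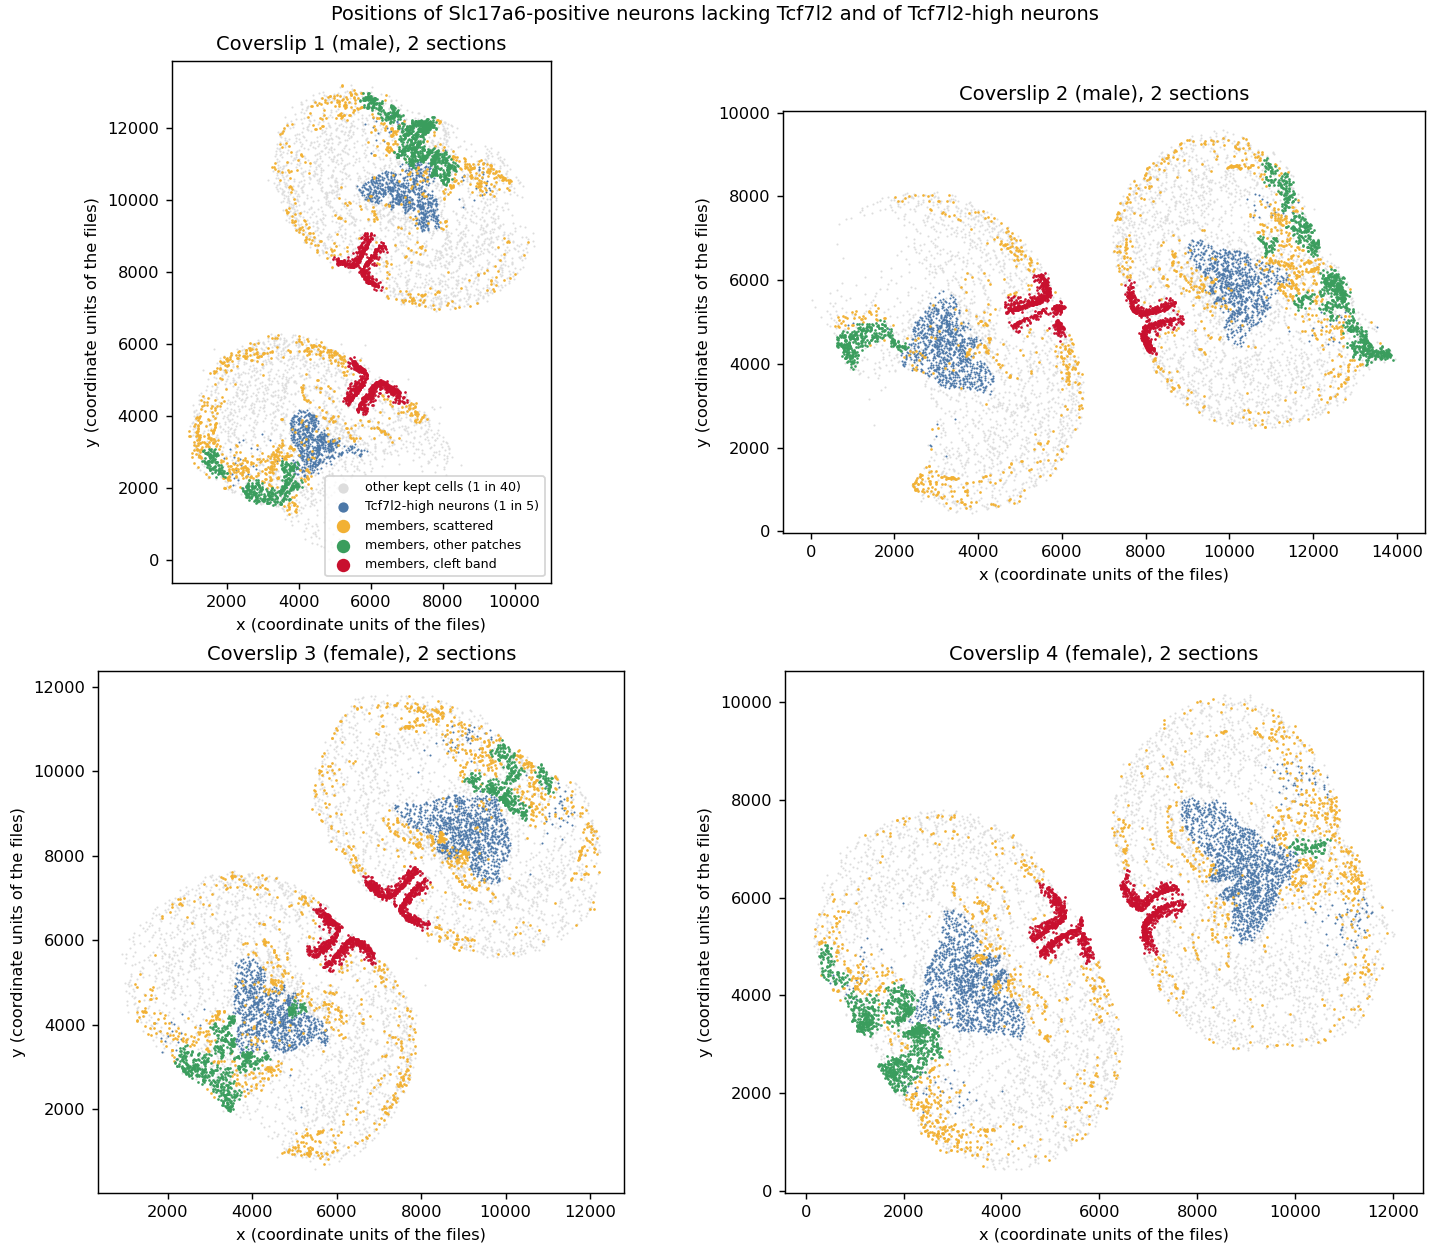
Positions of cells on the 4 coverslips, in the coordinate units of the files, with members of the cleft band in red, of other patches in green and scattered in yellow, 1 in 5 Tcf7l2-high neurons in blue and 1 in 40 other cells in grey. Section a is the lower or left section of each coverslip; every section shows the forked red band at the cleft, apart from the blue block, and green patches near the opposite surface.

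The cleft band held between 25.1% of a section's members (section 1b) and 47.3% (section 4b), with a median of 34.5%. Other patches ranged more widely, from 5.02% in section 4b to 45.1% in section 1b, and scattered members from 29.9% to 47.7%. The area of the band was made of kept cells that had band members as at least 10% of their 50 nearest cells. Within the area, 20.3% ± 1.51 of all kept cells were members (SD, n = 8 sections). That share is high by the definition of the area and is not a separate result. There, 15.6% ± 2.61 were Gad-positive, 6.43% ± 1.26 were cortical-type, which means Cux2, Rorb or Bcl11b above the limits of the gate with little Gad1, Gad2 or Slc1a3, and 10.96% ± 1.65 were Slc1a3-positive. For shares of an area or of neighbours, Slc1a3-positive means Slc1a3 of at least 5 at any Slc17a6 count. Tcf7l2-high neurons were all but missing from the area, at 0.00391% on average.

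Members and Tcf7l2-high neurons occupied different tissue. Among the 50 nearest cells of a member, 13.8% ± 0.541 were members and 1.34% ± 0.256 were Tcf7l2-high neurons (SD, n = 4 coverslips). Around a Tcf7l2-high neuron the shares were 0.549% ± 0.197 and 52.2% ± 3.24. The order was the same on all 4 coverslips and in all 8 sections, and the shares did not overlap. Gad-positive cells, with at least 3 counts of Gad1 and Gad2, which encode the enzymes of GABA synthesis, made up 28.2% ± 2.78 of the cells around members and 6.99% ± 2.48 of those around Tcf7l2-high neurons. Cortical-type cells made up 9.33% ± 0.871 and 1.38% ± 0.510. Around all kept cells the shares were 29.6% ± 4.20 Gad-positive and 14.9% ± 1.55 cortical-type. Members thus lay near this background for Gad-positive cells and below it for cortical-type cells, and Tcf7l2-high neurons lay far below it for both. Slc1a3-positive cells, where Slc1a3 is a glutamate transporter of astrocytes, made up 13.2% ± 1.43 and 12.3% ± 1.31, and this difference was positive in 6 of 8 sections. The median member lay 541 ± 116 coordinate units from the nearest Tcf7l2-high neuron and 22.9 ± 1.33 from the nearest other member. For the median kept cell the distances to a Tcf7l2-high neuron and to a member were 661 ± 123 and 124 ± 8.25.

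Over the 8 sections, 6 of these 7 measures gave an exact sign-flip p of 0.0078125, the smallest possible, and an adjusted p of 0.00911 over the 7 measures. The share of Slc1a3-positive cells gave p = 0.0703 (adjusted 0.0703; exact sign-flip test, two-sided). Over the 4 coverslips the adjusted p of the same test was 0.146 for those 6 and 0.25 for the Slc1a3-positive share. The smallest possible was 0.146 when 6 of 7 measures reach the lowest exact p. Both populations and all classes of neighbours are defined by the gating genes. These tests are therefore not independent of the gate and are no separate support for it. By these neighbours, 573 members lay in thalamic-type neighbourhoods, 4675 in cortical-type and 10600 in other neighbourhoods, a type being given where at least 10% of the 50 nearest cells were of it. Of the Tcf7l2-high neurons, 96.1% ± 0.531 lay in thalamic-type neighbourhoods, and of the members 3.62% ± 0.967.

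**Figure D3:**
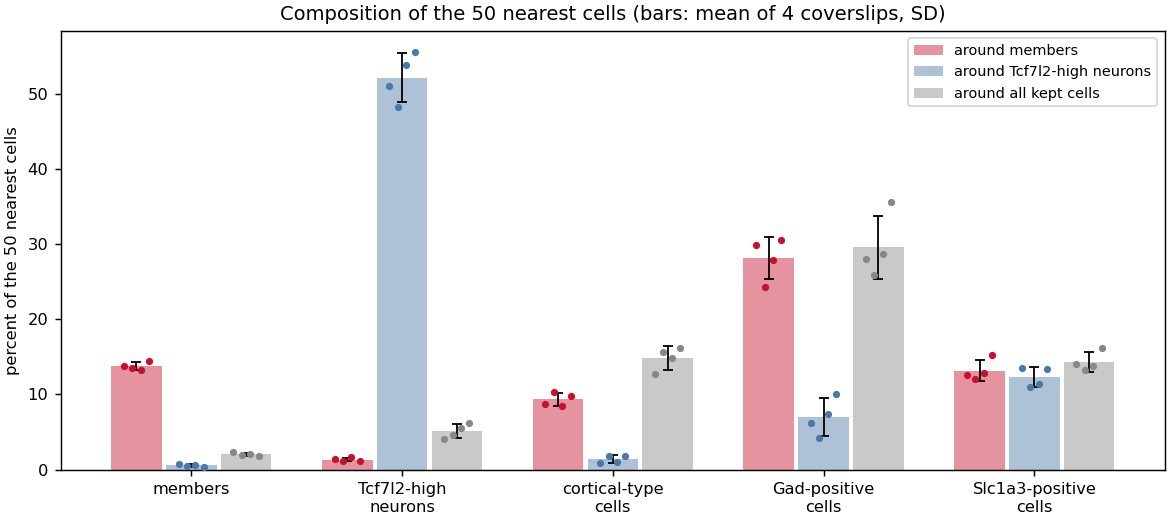
Percent of the 50 nearest cells that belong to each class, around members (red), Tcf7l2-high neurons (blue) and all kept cells (grey). Bars are means of 4 coverslips with SD, and points are coverslips. Each population has more of its own kind around it than all kept cells have (2.04% members and 5.13% Tcf7l2-high neurons), and the Slc1a3-positive shares overlap. The mean Gad-positive and cortical-type shares around members do not exceed those around all kept cells (29.6% and 14.9%).

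The places differed in their surroundings as well. The 50 nearest cells of band members held 15.1% ± 2.70 Gad-positive cells (SD, n = 8 sections), those of members in other patches 37.4% ± 9.89 and those of scattered members 33.3% ± 7.23. Scattered members had the most cortical-type neighbours, 15.9% ± 3.45, against 6.50% ± 1.14 for the band. Slc17a6 itself averaged 4.64 ± 0.315 counts per cell in the band, 6.53 ± 0.812 in other patches and 5.27 ± 0.704 in scattered members.

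Apart from the gate, 9 of 132 genes differed by more than 2-fold between members and Tcf7l2-high neurons (6.82%), 4 higher in members (3.03%) and 5 lower (3.79%). Those higher were Sfrp1, Tcf4, Wnt7b and Gpc4, and those lower were Sox2, Lef1, Fzd10, Wnt3 and Fzd1. The panel was built largely of Wnt pathway genes, so their number among the called ones is not a result. The test was edgeR's quasi-likelihood test against a 2-fold difference with coverslip as a block, adjusted over the 132 genes at 0.05, and a called gene also had to exceed every blank on every coverslip in the higher population. Against no change at all, 28 genes were higher (21.2%) and 20 lower (15.2%) with the same rule on blanks. Without that rule, 106 of the 132 genes had an adjusted p under 0.05 in the quasi-likelihood test against no change. Levels are counts per 1000 non-gating counts, values after ± beside a log2 difference are SE from the fit over 4 coverslips, and all genes together had a median log2 difference of -0.06.

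Sfrp1, which binds Wnt ligands outside the cell, held 8.99, 9.16, 12.5 and 11.2 counts per 1000 in members of coverslips 1 to 4, and 1.09, 1.33, 1.19 and 1.33 in Tcf7l2-high neurons. The difference was 3.01 ± 0.09 on the log2 scale (SE; adjusted p = 3.9e-07), and the populations did not overlap. Wnt7b, a ligand of the canonical pathway that cortical neurons make, held 5.81, 5.50, 6.44 and 6.10 in members and 1.72, 1.42, 1.59 and 1.58 in Tcf7l2-high neurons, a log2 difference of 1.86 ± 0.07 (adjusted p = 2.85e-06). Its levels were again apart on every coverslip.

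Tcf4, a basic helix-loop-helix transcription factor that is distinct from Tcf7l2 despite the older name of the latter, held 2.83, 2.79, 2.97 and 3.38 in members and 0.534, 0.542, 0.513 and 0.489 in Tcf7l2-high neurons. The log2 difference was 2.46 ± 0.10 (adjusted p = 1.92e-06). Gpc4, a glypican, that is a heparan sulfate proteoglycan anchored to the membrane, held 4.07, 3.62, 4.202 and 3.42 in members and 1.39, 1.36, 1.37 and 1.12 in the others, a log2 difference of 1.48 ± 0.07 (adjusted p = 8.34e-05). All 4 genes lay above every blank on all 4 coverslips in members. With the 8 sections as replicates Tcf4 (2.49) exceeded the blanks in 7 of 8 and was not called. With Slc17a6 of at least 5 Tcf4 passed edgeR's test (2.25, adjusted p = 3.33e-05) but failed the rule on blanks. Gpc4 was not called in members of cortical-type neighbourhoods only (1.02, adjusted p = 1). In Tcf7l2-high neurons Tcf4 lay above every blank on 0 coverslips, Sfrp1 on 1, Gpc4 on 2 and Wnt7b on 3, so those levels sit near the floor of the assay and the folds are uncertain in size.

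Among the lower genes, Sox2 held 1.86, 1.72, 2.66 and 1.78 in members and 17.2, 17.1, 16.2 and 18.6 in Tcf7l2-high neurons, a log2 difference of -3.19 ± 0.13 (adjusted p = 2.31e-05). Lef1, a TCF/LEF factor like Tcf7l2 and the thalamus-type marker outside the gate, held 1.38, 1.26, 1.11 and 1.22 against 6.04, 8.20, 9.94 and 10.6, a log2 difference of -2.84 ± 0.20 (adjusted p = 0.000509). Every coverslip of Tcf7l2-high neurons lay several-fold above every coverslip of members for both transcription factors.

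Fzd10, a Frizzled receptor for Wnt ligands, held 0.808, 0.713, 0.956 and 0.741 in members and 3.79, 5.30, 7.20 and 5.32 in Tcf7l2-high neurons (log2 -2.78 ± 0.13, adjusted p = 9.71e-06). The ligand Wnt3 held 0.685, 0.840, 0.848 and 0.861 against 3.02, 3.39, 4.32 and 4.195 (log2 -2.26 ± 0.08, adjusted p = 1.59e-06). Fzd1, the second receptor called, held 1.71, 1.45, 1.62 and 1.18 against 4.05, 3.04, 3.99 and 3.24 (log2 -1.33 ± 0.08, adjusted p = 0.00234), and its call was lost with Slc17a6 of at least 5 (-1.24, adjusted p = 0.0573) and without the replicate block (-1.33, adjusted p = 0.0664). No level of these genes in a member coverslip reached that of any Tcf7l2-high coverslip. In members the highest blank averaged 0.394 counts per cell, and Lef1, Fzd10 and Wnt3, at 0.353, 0.228 and 0.232 counts per cell, lay above every blank on 1 coverslip each.

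**Figure D4:**
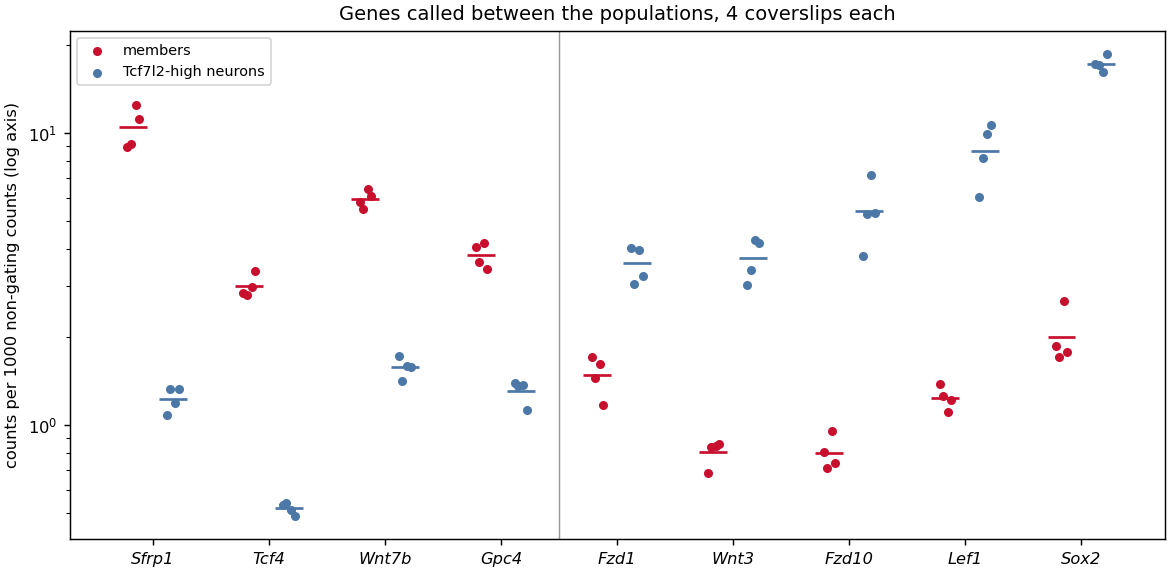
Counts per 1000 non-gating counts (log axis) of the 9 called genes in members (red) and Tcf7l2-high neurons (blue); points are the 4 coverslips and lines their means. The 4 genes left of the grey line are higher in members and the 5 right of it lower, with no overlap for any of them.

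The list differed by the position of the members. For members outside the cleft band (10501 cells, an alternative added after the map was seen), 1 gene was higher (0.758%), Wnt7b (log2 1.74 ± 0.10, adjusted p = 0.000157), and 5 were lower (3.79%), Sox2, Lef1, Fzd10, Wnt3 and Fzd9. Without the band Sfrp1 differed by 0.70 ± 0.15 (adjusted p = 1.00), Gpc4 by 0.91 ± 0.07 (adjusted p = 1.00) and Tcf4 by 1.31 ± 0.09 (adjusted p = 0.0108, but not above every blank), and none of these was called. Fzd1, at -0.89 ± 0.07 (adjusted p = 1.00), was also lost. Outside the band Sst (log2 2.39 ± 0.21, adjusted p = 0.00166) and Emx2 (1.95 ± 0.27, adjusted p = 0.0419) passed the same edgeR test but not the rule on blanks. With the 5347 members of the band alone, 5 genes were higher (3.79%) and 8 lower (6.06%), and the call added to the 4 higher ones was Cx3cl1. The 573 members in thalamic-type neighbourhoods were also set against Tcf7l2-high neurons in the same kind of neighbourhood. There 1 gene was higher (Wnt7b) and 1 lower (Fzd10). The other genes called with all members had smaller log2 differences there than with all members. Sfrp1 differed by 0.92, Tcf4 by 0.57, Gpc4 by 0.63, Sox2 by -1.69, Lef1 by -1.16, Wnt3 by -0.50 and Fzd1 by -0.46.

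The differences between the places of the members are given without a test, because the places were drawn after the map was seen. Sfrp1 held 23.0 to 34.1 counts per 1000 in the cleft band over the 8 sections, 1.01 to 3.31 in other patches and 2.04 to 3.27 in scattered members, so no section's band overlapped with the other places. Between band and other patches the mean log2 ratio was 3.89 ± 0.62 (SD, n = 8 sections). At least 5 Sfrp1 counts were found in 64.4% of band members, 1.497% of members in other patches and 2.41% of scattered members. Their median total counts were 272, 287 and 241. Of the members with at least 5 Sfrp1 counts, 3442 lay in the band, 73 in other patches and 135 were scattered.

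Tcf4 held 5.00 to 6.81 in the band, 0.358 to 0.858 in other patches and 1.48 to 3.21 in scattered members. Gpc4 held 5.19 to 8.20, 0.805 to 2.64 and 2.32 to 3.29 in the same order. Both therefore rank the band first in every section, while scattered members overlapped with other patches for Gpc4 but not for Tcf4. Wnt7b ranked otherwise, with 6.14 to 8.75 in the band, 1.25 to 3.12 in other patches and 6.11 to 11.5 in scattered members, and Sdc1, a syndecan, resembled it with 2.57 to 3.95, 0.268 to 1.31 and 2.28 to 3.79. Members of other patches stood apart from both other places in these last genes.

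Of the 132 genes, 26 were higher in the band than in other patches with no overlap between sections (19.7%), and 6 were lower with no overlap (4.55%). In 13 (9.85%) and 2 (1.52%) of these the mean ratio also reached 2-fold and the higher side exceeded every blank in each section. The 13 were Sfrp1, Tcf4, Sdc1, Wnt7b, Fzd9, Gpc4, Porcn, Apc, Gpc5, Gpc2, Fzd3, Ryk and Tbl1xr1, which include the Wnt receptors Fzd3, Fzd9 and Ryk, the enzyme Porcn that lipidates Wnt ligands, and Apc, a scaffold of the complex that degrades beta-catenin. Apc held 41.9 to 62.1 counts per 1000 in the band and 16.1 to 26.5 in other patches. The 2 lower genes were Peg3, an imprinted zinc finger gene, with 18.01 to 26.2 against 46.0 to 86.1, and Wnt4, with 1.95 to 3.40 against 4.45 to 7.68.

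Other cells in the area of the band showed part of the same picture. Meg3-rich non-members had at least 20 Meg3 counts, no Slc17a6 count and Gad1, Gad2, Slc1a3, Cux2, Bcl11b and Rorb within the limits of the gate. In the 1999 such cells of the band area, Sfrp1 was 3.35 log2 units above the same kind of cell elsewhere, Tcf4 1.32 and Gpc4 1.02. Wnt7b was 1.10 units below. These cells were set against all such cells elsewhere, whereas band members were set against other patches alone. Members within the radius of the cleft, set against all other members, differed by 3.72 for Sfrp1, 2.26 for Tcf4, 1.39 for Gpc4 and 0.51 for Wnt7b. In 2038 Slc1a3-positive cells of the area with Slc17a6 of at most 1, the values against such cells elsewhere were 0.91, 0.77, 0.30 and -0.23 in the same order. The higher Sfrp1 of the band is thus shared with neighbouring neurons that the gate left out, and is smaller in Slc1a3-positive cells. Whether transcripts of neighbouring cells were assigned to these cells was not tested.

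**Figure D5:**
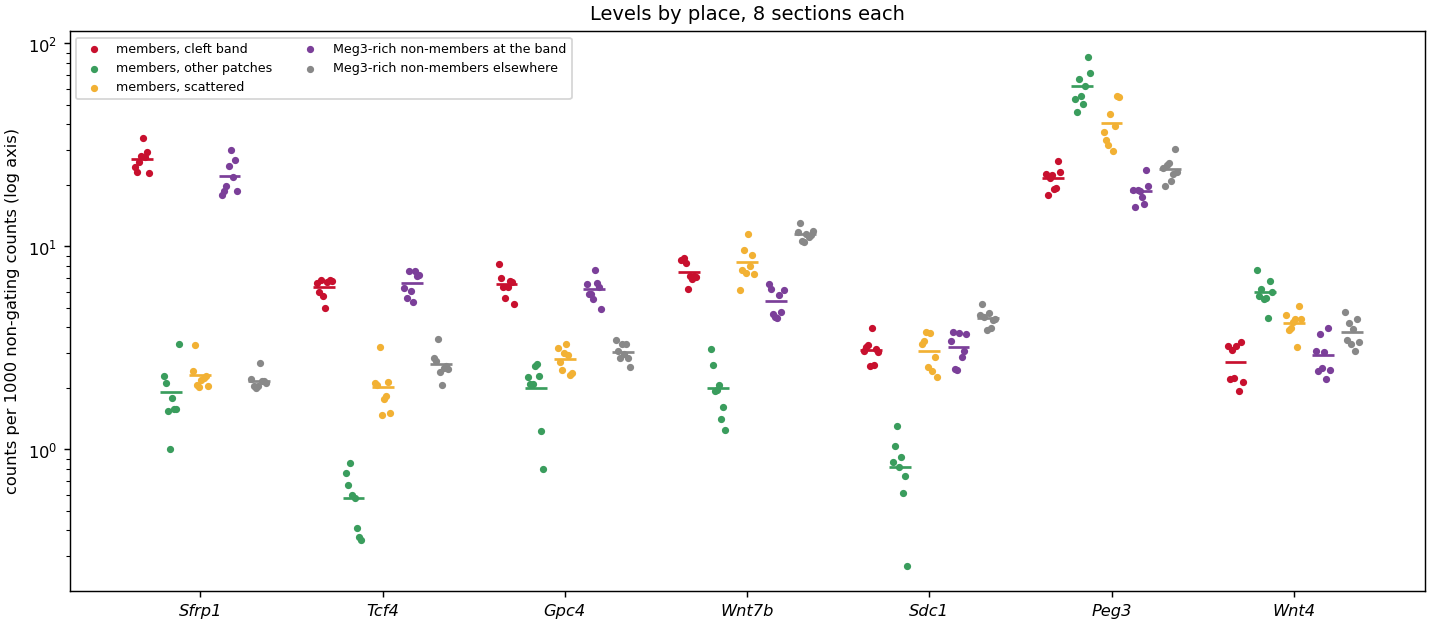
Counts per 1000 non-gating counts (log axis) of 7 genes in members by place and in Meg3-rich non-members inside and outside the band area; points are the 8 sections and lines their means. Sfrp1, Tcf4 and Gpc4 are high in the cleft band (red) and in its non-member neighbours (purple), Wnt7b and Sdc1 are low only in the other patches (green) among the member places, and Peg3 and Wnt4 are highest there.

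By gene list, the Wnt ligands and secretion genes had 1 of 19 higher (Wnt7b) and 1 lower (Wnt3) in members than in Tcf7l2-high neurons, with a median log2 difference of -0.07 against -0.06 over all genes. Wls, which carries Wnt ligands to the surface, differed by -1.04 ± 0.13 and Wnt9a by -0.72 ± 0.13, and neither was called. Of 19 receptors and cofactors 0 were higher and 2 lower (Fzd1 and Fzd10), with a median of -0.25. Fzd9 differed by -1.16 ± 0.07 (adjusted p = 0.051) and the noncanonical receptor Ror1 by -1.46 ± 0.09, which passed the test (adjusted p = 0.000685) but lay below the blanks. Of 14 genes that act inside the cell, 1 was lower (Lef1) and the median was -0.02. Ctnnb1, which encodes beta-catenin, differed by -0.64 ± 0.04, Daam2 by -0.61 ± 0.08 and Apc by 0.47 ± 0.04.

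Of 7 Wnt antagonists 1 was higher (Sfrp1), and the median was -0.12. Wif1 differed by -1.40 ± 0.24, Trabd2b by 0.66 ± 0.08 and Sfrp4 by -0.49 ± 0.08. Summed over the list, antagonists held 14.8 to 18.1 counts per 1000 in members and 6.92 to 7.41 in Tcf7l2-high neurons. That difference was Sfrp1's: the other 6 antagonists summed to 6.25, 5.65, 5.63 and 4.46 in members and 6.12, 6.09, 5.97 and 5.59 in Tcf7l2-high neurons, with overlap. Of 10 glypicans and syndecans 1 was higher (Gpc4), with a median of 0.40, and Sdc1, Gpc3 and Sdc3 differed by 0.67 ± 0.07, 0.62 ± 0.08 and -0.45 ± 0.03. Of 8 patterning transcription factors 1 was lower (Sox2), with a median of -0.33, while Emx2, a factor of the dorsal forebrain, differed by 1.60 ± 0.20 (adjusted p = 0.038) and lay above the blanks on 1 of 4 coverslips in members. Sox10 and Sox9 differed by -1.07 ± 0.13 and -0.99 ± 0.07.

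None of the neuron genes outside the gate was called. Meg3 differed by -0.15 ± 0.02, Nlgn2 by 0.34 ± 0.03, Peg3 by 0.42 ± 0.04, Prkce by 0.75 ± 0.06, Bcl2 by -0.56 ± 0.07 and Fosl2 by 1.12 ± 0.19 on the log2 scale. Syt6, a marker of deep cortical layers, differed by -1.19 ± 0.40 (adjusted p = 0.958), with 0.872 to 1.16 counts per 1000 in members and 0.733 to 3.83 in Tcf7l2-high neurons. Cx3cl1, the gene deleted in the knockout mice, held 0.134, 0.182, 0.174 and 0.264 counts per member in sections 1a, 2a, 3a and 4a and 9.52, 6.94, 9.13 and 10.8 in sections 1b, 2b, 3b and 4b. The a sections and the b sections did not overlap, but the genotype of a section is not given and none was assigned. Tcf7l2-high neurons held 0.183, 0.204, 0.221 and 0.301 Cx3cl1 counts per cell in the a sections and 5.44, 2.93, 5.29 and 6.07 in the b sections. In counts per cell, members thus exceeded Tcf7l2-high neurons in the b sections only. Between the populations Cx3cl1 differed by 1.20 ± 0.18 (adjusted p = 0.443), and every Cx3cl1 difference between populations given here pools a and b sections.

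No marker of another cell type was called. The inhibitory markers Sst, Vip and Pvalb, of which Sst is a neuropeptide of interneurons, had a median log2 difference of 0.55 with 0 of 3 called, and summed to 2.03 to 3.74 counts per 1000 in members and 0.98 to 1.28 in Tcf7l2-high neurons. Sst differed by 1.95 ± 0.15 (adjusted p = 0.000429) and was not called because it did not exceed the blanks on 1 coverslip. Vip differed by 0.55 ± 0.08 and Pvalb by 0.34 ± 0.07, both below the blanks on every coverslip. Sst was unevenly placed in cells pooled over sections. At least 5 counts were found in 3.05% of members in other patches, 0.299% in the cleft band and 0.802% of scattered members. Sst per 1000 counts was higher in other patches than in scattered members of sections 1a, 1b, 3b, 4a and 4b. In sections 2a, 2b and 3a it was lower, at 0.947, 1.05 and 1.04 in other patches against 1.496, 1.35 and 1.496. In the single patch of 80 members in section 4b, 28.75% had at least 5 Sst counts.

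Of 4 astrocyte markers 0 were called (median -0.79; sums of 6.57 to 9.04 in members and 8.44 to 11.2 in Tcf7l2-high neurons), with Aldh1l1 at -1.23 ± 0.10, Gfap at 0.82 ± 0.10 and Aqp4 at -0.60 ± 0.09. The limit on Slc1a3 applied to members only, and with the other limits applied to both populations the median of the astrocyte list was -0.27. Under the same limits 5 genes were higher and 5 lower, and the added gene was Cx3cl1 at 1.39 ± 0.10 (adjusted p = 0.00633). Of 4 oligodendrocyte lineage markers 0 were called (median -0.65; sums of 3.67 to 5.09 and 5.41 to 6.86), with Pdgfra at -0.94 ± 0.09, Cspg4 at -0.36 ± 0.14 and Enpp6 at -0.12 ± 0.08. Of 10 microglia and macrophage markers 0 were called (median 0.02; sums of 6.88 to 7.71 and 6.78 to 8.13), with Itgam at -0.98 ± 0.08, P2ry12 at -0.52 ± 0.09, Mrc1 at 0.39 ± 0.09 and Tmem119 at -0.23 ± 0.10. Of 3 vessel markers 0 were called (median -0.38), with Cldn5 at -0.60 ± 0.14, Pdgfrb at -0.38 ± 0.09 and Pecam1 at -0.09 ± 0.10. In members, 1 of 4 astrocyte, 0 of 4 oligodendrocyte, 1 of 10 microglia and 0 of 3 vessel markers lay above every blank on all 4 coverslips. The part of these cell types in the differences was not tested.

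Among the members themselves, those in thalamic-type neighbourhoods differed in several genes. Against members of cortical-type neighbourhoods 9 of 132 genes were called (6.82%): 5 were higher (3.79%), namely Cldn5, Lef1, Sox2, Wnt3 and Apoe, and 4 were lower (3.03%), namely Sfrp1, Tcf4, Fosl2 and Sdc1. Against members of other neighbourhoods 6 were called (4.55%): 3 were higher (2.27%), Cldn5, Wnt3 and Lef1, and 3 were lower (2.27%), Sfrp1, Tcf4 and Gpc4. The same edgeR test against a 2-fold difference was used. Members of the cleft band had 0.00239% Tcf7l2-high neurons among their 50 nearest cells on average, so the thalamic-type group held next to none of them. The part of the band in the lower Sfrp1, Tcf4 and Gpc4 of that group was not tested. Between other and cortical-type neighbourhoods 0 genes were called in either direction by edgeR and by DESeq2. Without the rule on blanks, 0 genes had an unadjusted p under 0.05 in edgeR's test against 2-fold, and 43 against no change. Against no change 18 had an adjusted p under 0.05.

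Lef1 held 4.18, 3.06, 3.81 and 4.57 counts per 1000 in thalamic-type neighbourhoods on coverslips 1 to 4, against 0.951, 1.05, 0.775 and 0.766 in cortical-type ones (log2 2.27 ± 0.16, adjusted p = 3.9e-05). Wnt3 held 2.37, 2.72, 3.33 and 2.27 against 0.673, 0.747, 0.763 and 0.864 (log2 1.92 ± 0.15, adjusted p = 0.000127). Sox2 held 7.63, 8.53, 4.13 and 3.07 against 1.33, 1.54, 1.68 and 1.15 (log2 2.10 ± 0.28, adjusted p = 0.00571). These are 3 of the genes that were high in Tcf7l2-high neurons, and all 3 calls depended on the choice of members or neighbourhoods. Without the members that had 1 Tcf7l2 count, Lef1 (1.93, adjusted p = 0.00118) and Wnt3 (1.78, adjusted p = 0.00887) still passed edgeR's test. They were not called there because they failed the rule on blanks. At a 5% minimum share Wnt3 (1.57, adjusted p = 0.0138) likewise passed edgeR's test but failed the rule on blanks. Sox2 (1.48, adjusted p = 0.188) did not pass the test at that share.

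Apoe, a lipid carrier made mainly by glia, differed by 1.42 ± 0.09 (adjusted p = 0.00113). Cldn5, a tight junction gene of brain vessels, held 10.7, 8.68, 8.40 and 1.08 in thalamic-type neighbourhoods and 0.746, 1.24, 1.73 and 0.738 in cortical-type ones, so that coverslip 4 lay within the range of the other group (log2 2.65 ± 0.47, adjusted p = 0.0212). The call was lost without coverslip 1 (2.31, adjusted p = 0.102), coverslip 2 (2.53, adjusted p = 0.0622) or coverslip 3 (2.67, adjusted p = 0.116). On the lower side Sfrp1 fell by 2.12 on the log2 scale (SE 0.15), Tcf4 by 2.10 (SE 0.15), Fosl2 by 2.03 (SE 0.31) and Sdc1 by 1.89 (SE 0.14). The call of Sox2 was lost without coverslip 1 (1.96, adjusted p = 0.0747), and that of Fosl2 without coverslip 1 (-1.71, adjusted p = 0.0809) or coverslip 2 (-1.82, adjusted p = 0.0622).

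The same contrast in Slc1a3-positive cells, which are not members, gave 3.55 for Wnt3, 0.98 for Apoe, 0.92 for Sox2, 0.35 for Lef1, 0.25 for Cldn5, -1.60 for Sfrp1 and -0.76 for Tcf4. These cells had Slc1a3 of at least 5 and Slc17a6 of at most 1. Wnt3 and Sfrp1 thus differed by neighbourhood in other cells too, Wnt3 more than in members. Whether transcripts of neighbouring cells add to the members' counts there was not tested. Against other neighbourhoods, Cldn5 was called with all 4 coverslips (log2 2.46 ± 0.47, adjusted p = 0.0482), as were Lef1 (1.54 ± 0.16, adjusted p = 0.0119), Wnt3 (1.75 ± 0.15, adjusted p = 0.00107) and Gpc4 (-1.41 ± 0.15, adjusted p = 0.0367). Gpc4 was lost without any 1 of the 4 coverslips (adjusted p = 0.0622 to 0.238), Cldn5 without coverslip 1, 2 or 3 (adjusted p = 0.139, 0.171 and 0.342), and Lef1 without coverslip 3 or 4 (adjusted p = 0.0954 and 0.0622).

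Between the sexes 3 of 132 genes of the members differed (2.27%): 1 was higher on female coverslips (0.758%), Gfap, the intermediate filament of astrocytes, and 2 were lower (1.52%), Gsk3b, a kinase that marks beta-catenin for degradation, and the ligand Wnt16, in edgeR's quasi-likelihood test of 2 against 2 coverslips with the same rule on blanks. Nfatc1, a transcription factor that calcium signals activate, had the lowest p (log2 -1.36 ± 0.26, adjusted p = 4.14e-05) but lay below the highest blank on every coverslip and was not called. It held 1.37 and 1.14 counts per 1000 on the male and 0.658 and 0.329 on the female coverslips. Gfap held 1.99 and 2.63 counts per 1000 on the male and 3.60 and 4.01 on the female coverslips (log2 0.72 ± 0.21, adjusted p = 0.0381). Gsk3b held 17.2 and 21.6 on the male and 12.3 and 12.5 on the female ones (log2 -0.64 ± 0.19, adjusted p = 0.0435). Wnt16 held 2.14 and 2.68 against 1.83 and 1.03 (log2 -0.77 ± 0.24, adjusted p = 0.048).

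The values of the sexes did not overlap for 57 of the 132 genes (43.2%). Leaving out coverslip 4 left 0 calls, coverslip 2 took the 2 lower calls, coverslip 1 took that of Gfap (adjusted p = 0.463) while 2 genes were then higher, and coverslip 3 took that of Gsk3b (adjusted p = 0.085). In members of cortical-type neighbourhoods 0 genes were called, and in those of other neighbourhoods 2 were higher and 1 lower. The female coverslips were also the deeper ones, with 258 and 352 counts in the median member against 236 and 246, so sex and depth cannot be told apart.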

How the data were processed

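The members, gene lists and comparisons were chosen with earlier results of these data known. The deposited files give, per cell, raw counts of each gene and blank. Per the file headers they also hold other columns, the position and volume of each cell, with no stated unit. Decoding and segmentation software is not given in the sources used here.

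Cells with under 20 gene counts were left out. Counts were summed per coverslip (the replicate, n = 4) and tested in R 4.3.3 with edgeR 4.0.16: TMM factors over the 132 non-gating genes, quasi-likelihood fit, coverslip as block, glmTreat against 2-fold, Benjamini-Hochberg at 0.05. The filter on genes with fewer than 10 counts in most sums removed 0 of the 132. Sexes were compared by the quasi-likelihood test without a fold threshold. DESeq2 1.42.0 was an alternative. Both populations of a coverslip come from the same sections, so coverslip is the block. Neighbours and patches came from positions (scipy 1.17.1, scikit-learn 1.9.0), with the cleft read from the map by eye. Fits were tested on simulated data. No doublet caller was run.

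Genes named were called ones (up to 12 per direction between populations, 6 between neighbourhoods, 10 between sexes), up to 4 per list by size of difference, all of lists of up to 6, and 8 neuron genes. Genes of the comparison of places were chosen after their values were seen. Contrasts of genotype or hemisphere were not made, since neither was assigned to cells. A tested gene of the panel is not reported here.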

Additional observations from a re-analysis of the deposited data

Results flagged for a closer look

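Of 32 sets of values over 4 coverslips or 8 sections, 3 had a value far from the others by Dixon's criterion, which chance flags in about 1 set in 20. The log2 difference of Fzd10 between members and Tcf7l2-high neurons was -2.23 on coverslip 1 and -2.91 to -2.84 on the other coverslips. The share of Gad-positive cells among the nearest cells was 23.8 percentage points higher around members than around Tcf7l2-high neurons on coverslip 1, and 20.2 to 20.5 points higher on the others. Sst held 37.5 counts per 1000 in the other patch of section 4b, where that place had 80 members in a single patch, and 0.947 to 7.67 in the other patches of the other sections.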

How the results depend on the processing

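Limits come first from the blanks and from 4 coverslips: the lower level of most called genes lay near the blanks, and places were drawn after the map was seen. Of the 9 genes called between populations, Wnt7b and Fzd10 were called under all 24 alternatives, and none of the 9 reversed. The others had smaller differences in thalamic-type neighbourhoods only. The higher calls numbered 7 against 1.5-fold, 28 against no change, 1 in thalamic-type neighbourhoods only and 1 outside the cleft band. The lower calls numbered 9 against 1.5-fold, 20 against no change, 8 with cell volume as offset, 9 in cells matched on depth, 1 in thalamic-type neighbourhoods only and 8 in the band only. Without the replicate block 4 were higher and 4 lower, Fzd1 being lost (adjusted p = 0.0664 by edgeR). Leaving out 1 coverslip gave 4 to 5 higher and 5 to 6 lower.

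For thalamic-type against cortical-type neighbourhoods, the higher calls numbered 8 against 1.5-fold, 2 at a 5% minimum share, 9 at 20%, 3 with Tcf7l2 of 0 in members and 3 to 5 with 1 coverslip left out. The lower ones numbered 11 against 1.5-fold and 3 to 4 with 1 coverslip left out. Without the replicate block they numbered 4 and 3. Against other neighbourhoods the higher calls numbered 6 against 1.5-fold, 10 at 20%, 0 with Tcf7l2 of 0 in members and 1 to 2 with 1 coverslip left out. Other against cortical-type neighbourhoods kept 0 calls with each coverslip left out. Between the sexes the higher calls numbered 5 with DESeq2, 0 with Tcf7l2 of 0, 0 in cortical-type and 2 in other neighbourhoods, and 0 to 2 with 1 coverslip left out. The lower ones numbered 1 with library totals, 0 with cell volume, 0 with Tcf7l2 of 0, 0 in cortical-type and 1 in other neighbourhoods, and 0 to 2 with 1 coverslip left out. No paired analysis was possible because the replicate numbers of male and female coverslips only name them.

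Reversed log2 differences between populations were as follows, none of them called in the main comparison. In thalamic-type neighbourhoods only, Fosl2 was -0.44, Sdc1 -0.52, Vip -0.32, Apc -0.16, Pecam1 0.85, Meg3 0.048, Tmem119 0.039, Cspg4 0.77, P2ry12 0.028, Cldn5 1.73, Pdgfra 0.48, Wls 0.21, Sox10 0.28 and Syt6 0.88. In members of cortical-type neighbourhoods Peg3 was -0.097, and in the cleft band only it was -0.51. Pecam1 was 0.00081 with DESeq2 and 0.018 with Slc17a6 of at least 5, where Enpp6 was 0.0087. Meg3 was 0.054 in cells matched on depth and 0.036 outside the band. The cause of these changes was not tested.

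The member share was 1.65% thinned, 2.52% in the same cells unthinned, 1.74% with Tcf7l2 of 0 and 0.938% with Slc17a6 of at least 5, and 1.93% to 2.10% with 1 coverslip left out. Over 8 sections the differences in neighbour shares, members minus Tcf7l2-high neurons, were 13.2 points for members, -50.8 for Tcf7l2-high neurons, 7.98 for cortical-type and 21.2 for Gad-positive cells. The median distances differed by 583 units to the nearest Tcf7l2-high neuron and by -154 to the nearest other member. For all members within the radius of the cleft against all others, the log2 ratio was 2.26 for Tcf4 and 0.51 for Wnt7b.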
